A study of Homo sapiens with 6 samples.

Results

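The genes described here make NAD, the redox carrier of the cell, or act directly on its precursors, and they were listed around NMRK1, the nicotinamide riboside kinase. They are 10 of the 26334 gene symbols counted: NMRK1, NAMPT, NAPRT1 (given as NAPRT in the files), NMNAT1, NMNAT2, NMNAT3, NADSYN1, QPRT, NNMT and NADK. NMRK1 was chosen by its higher count in the clones labelled ZEB1-KO in these same libraries, so its values are a description without a test. The other members were added as genes of the same pathway, with results of this comparison already known.

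NAD is built from several precursors that meet at a shared last step. Nicotinamide is turned into nicotinamide mononucleotide by NAMPT, and nicotinamide riboside is phosphorylated to the same mononucleotide by NMRK1. Nicotinic acid enters through NAPRT, and quinolinate, the end of the route from tryptophan, enters through QPRT, both giving the nicotinic acid mononucleotide. The NMNAT enzymes adenylate either mononucleotide, NADSYN1 amidates the nicotinic acid form to NAD, NADK phosphorylates NAD to NADP, and NNMT methylates nicotinamide and so removes it from salvage.

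The libraries came from clones of MiaPaCa2, an established cell line from a pancreatic ductal adenocarcinoma. The 3 ZEB1-KO clones received, by electroporation, a plasmid for Cas9 and GFP that also carried a guide RNA against ZEB1, the zinc-finger repressor of epithelial genes, and were sorted for GFP. The 3 WT clones were sorted in the same way after the plasmid without that guide, so both groups had been exposed to Cas9 and cloned. Each replicate is 1 clone, grown in DMEM with serum, a medium whose formula includes nicotinamide, and 2000 cells a clone went into SMART-Seq2, a poly(A)-primed method that amplifies full-length cDNA and does not record the strand. With 1 library a clone, a lower level in every cell and fewer cells that express a gene cannot be told apart.

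Total counts ranged from 18909305 to 36798770 in ZEB1-KO libraries and from 26242238 to 42876693 in WT libraries. ZEB1 itself had 67, 140 and 369 counts in ZEB1-KO replicates 1, 2 and 3, against 1486, 1011 and 830 counts in WT replicates 1, 2 and 3, so transcript stayed detectable in every ZEB1-KO library. The log2 fold change of ZEB1 was -2.43 (SE 0.49, adjusted p = 0.0930, edgeR's quasi-likelihood test), with no overlap between the groups. Without ZEB1-KO replicate 3, the clone with the most ZEB1 left, it was -3.27 (adjusted p = 0.0137), and over all alternatives the adjusted p ranged from 3.28e-05 with DESeq2 to 0.278 without WT replicate 3. Counts do not show whether the guide's cut left a working protein. The keratin genes KRT8 and KRT18 and the vimentin gene VIM had at least 21602 counts in each library. Of the other keratin genes listed as markers, KRT19 had at least 2864 counts in each library. KRT7 was low, with 0, 4 and 17 counts in ZEB1-KO and 25, 4 and 0 counts in WT replicates 1, 2 and 3. CDKN2A, a locus known to be deleted in this line, had 0 counts in all 6 libraries. Summed markers of leukocytes, endothelium, fibroblasts and acinar or islet cells reached at most 3.14 CPM in a ZEB1-KO library and 11.7 CPM in a WT library, the highest value coming from CD14 in WT replicate 1. CPM are counts divided by the scaled library size, so that libraries of different depth can be compared.

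NMRK1 had 204, 248 and 282 counts in ZEB1-KO replicates 1, 2 and 3, against 31, 45 and 12 counts in WT replicates 1, 2 and 3. These counts correspond to 10.2, 6.13 and 8.78 CPM in the ZEB1-KO clones and to 0.710, 1.39 and 0.486 CPM in the WT clones. All 3 ZEB1-KO clones lay above all 3 WT clones, and the lowest ZEB1-KO value came from replicate 2. The mean was 8.36 CPM ± 2.06 in ZEB1-KO and 0.861 CPM ± 0.470 in WT clones (SD, n = 3 each). The fitted difference was 9.61-fold, or 3.27 on the log2 scale (SE 0.46), with a 95% interval of 2.21 to 4.32. In the same clones ZEB1 had 3.34, 3.46 and 11.5 CPM in ZEB1-KO replicates 1, 2 and 3, and a relation between the levels of ZEB1 and NMRK1 was not tested over so few clones. The plot of levels by clone shows NMRK1 beside the other members.

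**Figure D1:**
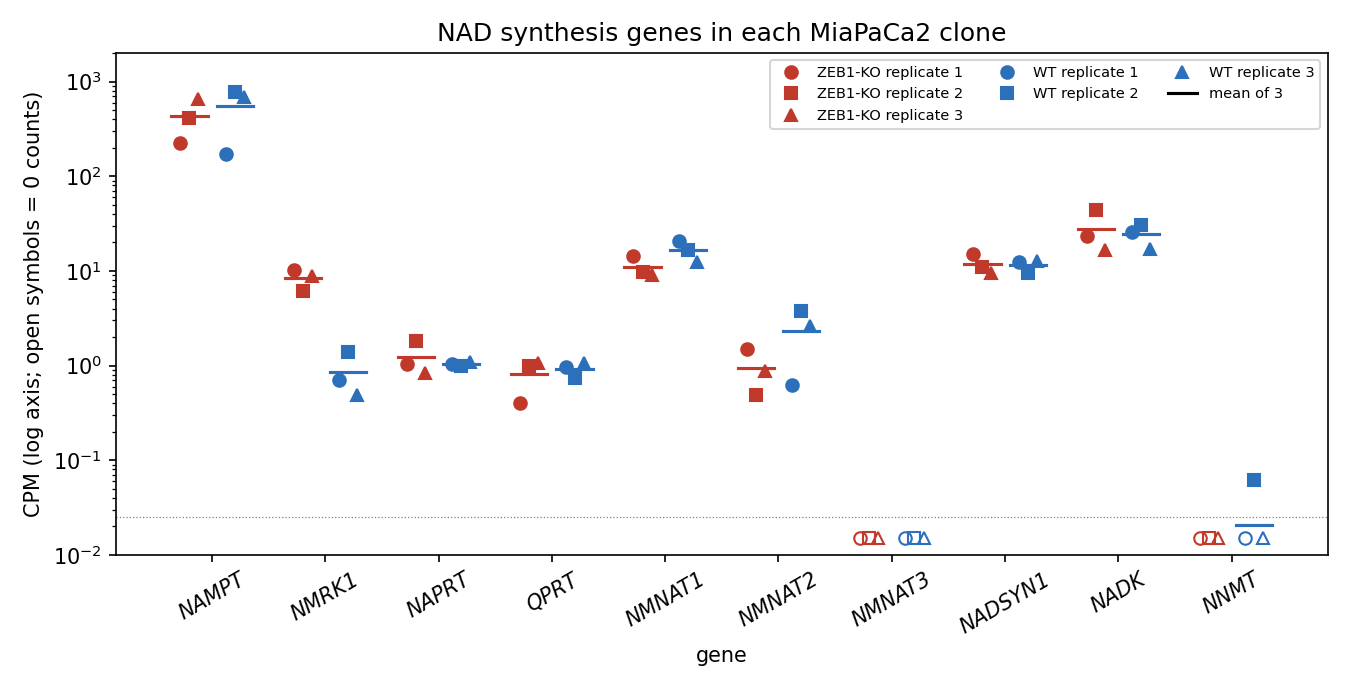
Scaled counts (CPM, log axis) of the 10 NAD synthesis genes in each ZEB1-KO clone (red, left of each pair) and WT clone (blue, right), with the symbol shape giving the replicate, bars the mean of 3 and open symbols below the dotted line 0 counts. NMRK1 is the member whose groups do not overlap, at 6.13 CPM or more in ZEB1-KO and 1.39 CPM or less in WT clones.

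NAMPT, the rate-limiting enzyme of nicotinamide salvage, was the most abundant member in TPM in every clone. It had 223, 415 and 661 CPM in ZEB1-KO replicates 1, 2 and 3, against 170, 776 and 692 CPM in WT replicates 1, 2 and 3. The groups overlapped, and the spread was inside them: replicate 1 was the lowest clone of each group, and the highest clone exceeded the lowest by 2.96-fold among ZEB1-KO and by 4.56-fold among WT clones. The log2 fold change was -0.34 (SE 0.56, adjusted p = 0.788, edgeR's quasi-likelihood test), and its 95% interval of -1.62 to 0.95 was too wide to place NAMPT on either side of 0. Without WT replicate 2 the log2 fold change of NAMPT was 0.027. On the deposited TPM it was slightly above 0 and below the median of all genes, which that scaling moved up.

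The other entry enzymes were low in both groups. NAPRT, which uses nicotinic acid, had 21, 73 and 27 counts in ZEB1-KO replicates 1, 2 and 3, against 45, 32 and 27 counts in WT replicates 1, 2 and 3. Its WT clones were nearly alike, at 1.04 CPM ± 0.0537, whereas ZEB1-KO clones had 1.23 CPM ± 0.507 (SD, n = 3 each), with replicate 2 the highest. QPRT had 8, 40 and 34 counts in ZEB1-KO replicates 1, 2 and 3, against 42, 24 and 26 counts in WT replicates 1, 2 and 3. Its low ZEB1-KO value was in the library with the fewest counts, at 0.399 CPM against 0.988 and 1.06 CPM in the other ZEB1-KO clones and 0.740 to 1.05 CPM in the WT clones. The log2 fold change was 0.26 (SE 0.40) for NAPRT and -0.15 (SE 0.45) for QPRT, and neither passed the test (adjusted p = 0.774 and 0.890, edgeR's quasi-likelihood test).

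Levels of different genes were compared on the deposited TPM, which is scaled by gene length and covers 7 of the 10 members. NMRK1 had 11.4, 7.79 and 10.0 TPM in ZEB1-KO replicates 1, 2 and 3, against 0.759, 1.24 and 0.469 TPM in WT replicates 1, 2 and 3. In mean TPM NMRK1 was the 3rd of the 7 genes in ZEB1-KO clones, behind NAMPT and NADK, and the 6th in WT clones, above NMNAT2 alone. In ZEB1-KO clones the ranges of NADK (6.46 to 19.1 TPM), NMRK1 (7.79 to 11.4 TPM) and NADSYN1 (6.52 to 10.2 TPM) overlapped, so these neighbours were not separated, while NMNAT1 (3.45 to 5.27 TPM) lay below all of them. In WT clones NMRK1 (0.469 to 1.24 TPM) overlapped with NAPRT (0.752 to 0.938 TPM) and NMNAT2 (0.166 to 0.847 TPM), and NADK (5.62 to 9.36 TPM), NADSYN1 (5.10 to 7.93 TPM) and NMNAT1 (3.96 to 7.35 TPM) overlapped with each other.

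The balance between the nicotinamide and the nicotinamide riboside enzyme differed between the groups in the direction of NMRK1. NAMPT exceeded NMRK1 by 6.94, 21.4 and 23.8 times in TPM in ZEB1-KO replicates 1, 2 and 3, against 75.9, 177 and 451 times in WT replicates 1, 2 and 3. Of the summed TPM of NAMPT, NMRK1 and NAPRT, NMRK1 made up 12.5%, 4.41% and 4.02% in ZEB1-KO replicates 1, 2 and 3, against 1.28%, 0.560% and 0.220% in WT replicates 1, 2 and 3. The groups did not overlap in either measure, which includes the value NMRK1 was chosen by, and NAMPT transcript still held at least 86.4% of that sum in every clone.

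**Figure D2:**
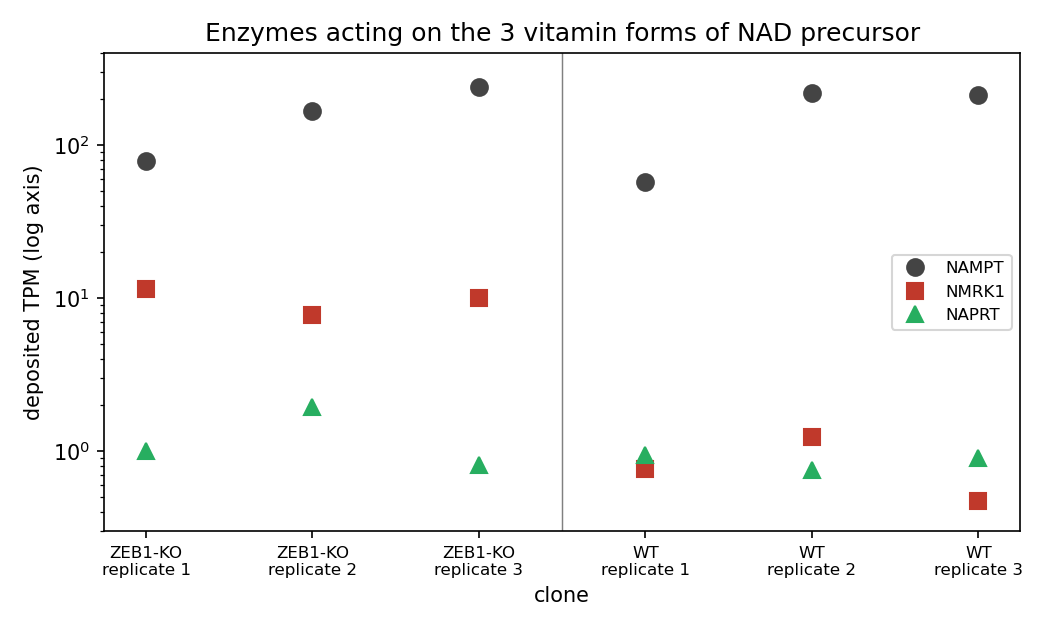
Deposited TPM (log axis) of NAMPT, NMRK1 and NAPRT in the 3 ZEB1-KO clones (left of the line) and the 3 WT clones (right). NMRK1 sits between 7.79 and 11.4 TPM in ZEB1-KO clones and between 0.469 and 1.24 TPM in WT clones, where it is level with NAPRT, while NAMPT varies between clones of both groups.

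The enzymes of the shared last step differed among themselves more than between groups. NMNAT1, the nuclear enzyme, had 14.3, 9.83 and 9.15 CPM in ZEB1-KO replicates 1, 2 and 3, against 20.8, 16.4 and 12.4 CPM in WT replicates 1, 2 and 3. Its highest ZEB1-KO clone lay above its lowest WT clone, and the log2 fold change of -0.58 (SE 0.30) did not pass the test (adjusted p = 0.337, edgeR's quasi-likelihood test). NMNAT2, the cytosolic and Golgi-associated enzyme known for its role in axons, had 30, 20 and 28 counts in ZEB1-KO replicates 1, 2 and 3, against 27, 122 and 65 counts in WT replicates 1, 2 and 3. WT replicate 1 fell among the ZEB1-KO clones in CPM, and the log2 fold change of -1.31 (SE 0.68) did not pass either (adjusted p = 0.348), with a 95% interval of -2.87 to 0.25. NMNAT1 exceeded NMNAT2 by 12.5 to 26.1 times in TPM in ZEB1-KO clones and by 5.73 to 44.2 times in WT clones. NMNAT3, the mitochondrial enzyme, had 0 counts in all 6 libraries, which allows up to 0.0741 to 0.150 CPM in a ZEB1-KO library and up to 0.0687 to 0.122 CPM in a WT library at a floor of 3 counts. GENCODE v29 places a gene on the opposite strand over NMNAT3, and the setting used for reads in such overlaps is not known here.

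NADSYN1, the glutamine-dependent NAD synthetase, had the smallest SE of the tested members. It had 15.2, 11.04 and 9.56 CPM in ZEB1-KO replicates 1, 2 and 3, against 12.4, 9.56 and 12.7 CPM in WT replicates 1, 2 and 3. The groups overlapped, and the log2 fold change of 0.045 (SE 0.27) had a 95% interval of -0.58 to 0.67 and did not pass the test (adjusted p = 0.946, edgeR's quasi-likelihood test). NADK, the cytosolic NAD kinase, had 23.6, 43.8 and 16.5 CPM in ZEB1-KO replicates 1, 2 and 3, against 25.5, 30.5 and 16.97 CPM in WT replicates 1, 2 and 3. ZEB1-KO replicate 2 was the highest and the other clones of both groups shared a range, and the log2 fold change of 0.20 (SE 0.39) did not pass the test (adjusted p = 0.820, edgeR's quasi-likelihood test). NNMT, an enzyme often abundant in mesenchymal tumour cells, had 0 counts in each ZEB1-KO library and 0, 2 and 0 counts in WT replicates 1, 2 and 3, too few counts to detect a difference at this depth.

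Because ZEB1 binds DNA at the E-box sequence CACCTG, the promoters of the members were searched for it on both strands, in windows from 250 bases before to 50 bases after each start. RefSeq windows (build GRCh38.p14, whereas the counts rest on hg19) were matched for 7 of the 10 members, with 12 starts in all, and NMRK1, NAPRT and NNMT were not searched. The motif was found at 2 of these 12 starts, those of NADSYN1 and of 1 of the 3 NADK starts, against 20.6% of all 35116 windows in the same table. NADSYN1 held 2 copies, as 3.49% of all windows hold 2 or more, and neither gene passed the test between ZEB1-KO and WT clones. These windows of NADSYN1 and NADK are shown because, of the 12 searched, they hold CACCTG. No other sequence was searched for, so windows without it may hold other forms of a ZEB1 site. The motif is in capitals and the gene's strand runs 5′ to 3′. NADSYN1 is on the plus strand at chr11:71452953-71453252 and NADK on the minus strand at chr1:1778767-1779066. A match is a description of the sequence and not a bound site.
NADSYN1: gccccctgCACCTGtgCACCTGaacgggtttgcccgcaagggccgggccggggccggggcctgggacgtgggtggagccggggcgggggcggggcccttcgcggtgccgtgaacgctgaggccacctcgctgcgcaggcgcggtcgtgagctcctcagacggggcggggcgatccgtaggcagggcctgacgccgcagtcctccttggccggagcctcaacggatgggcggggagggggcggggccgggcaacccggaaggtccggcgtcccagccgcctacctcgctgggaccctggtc
NADK: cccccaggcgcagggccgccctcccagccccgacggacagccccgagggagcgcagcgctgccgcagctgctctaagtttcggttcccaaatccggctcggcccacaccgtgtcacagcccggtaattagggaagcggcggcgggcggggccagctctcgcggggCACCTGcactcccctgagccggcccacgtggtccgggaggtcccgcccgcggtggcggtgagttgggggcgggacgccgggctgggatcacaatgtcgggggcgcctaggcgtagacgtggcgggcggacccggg

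Of the 10 members, 8 had enough counts to be tested, and NMNAT3 and NNMT were too low. In edgeR's quasi-likelihood test with an adjusted p below 0.05, 1 of the 8 was higher in ZEB1-KO clones, NMRK1, against 0.117% of the 13659 genes tested, and 0 of the 8 were lower, against 0.0586%. Only NMRK1 had an unadjusted p below 0.05, a mark reached by 17.7% of all tested genes in either direction. DESeq2 also called 1 member higher and 0 lower, against 4.34% and 2.78% of all genes, and the authors' deposited table, which lists 7 members, had 1 higher and 0 lower past the same threshold, against 2.82% and 1.92%. The ranges of ZEB1-KO and WT clones did not overlap in 1 of the 8, NMRK1, which was above, where 11.9% of all tested genes had every ZEB1-KO clone above and 11.7% every ZEB1-KO clone below every WT clone. The rule itself used this contrast, so these counts describe how the members were put together. The median log2 fold change of the 8 was -0.05 and that of all tested genes -0.008, with 4 members above and 4 below 0. In the quasi-likelihood test the NMRK1 call was narrow and was lost on leaving out any 1 of the 6 libraries. Its log2 fold change stayed between 3.00 and 3.79 in those fits. As NMRK1 was chosen by this contrast, neither the call nor its loss is evidence about it.

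**Figure D3:**
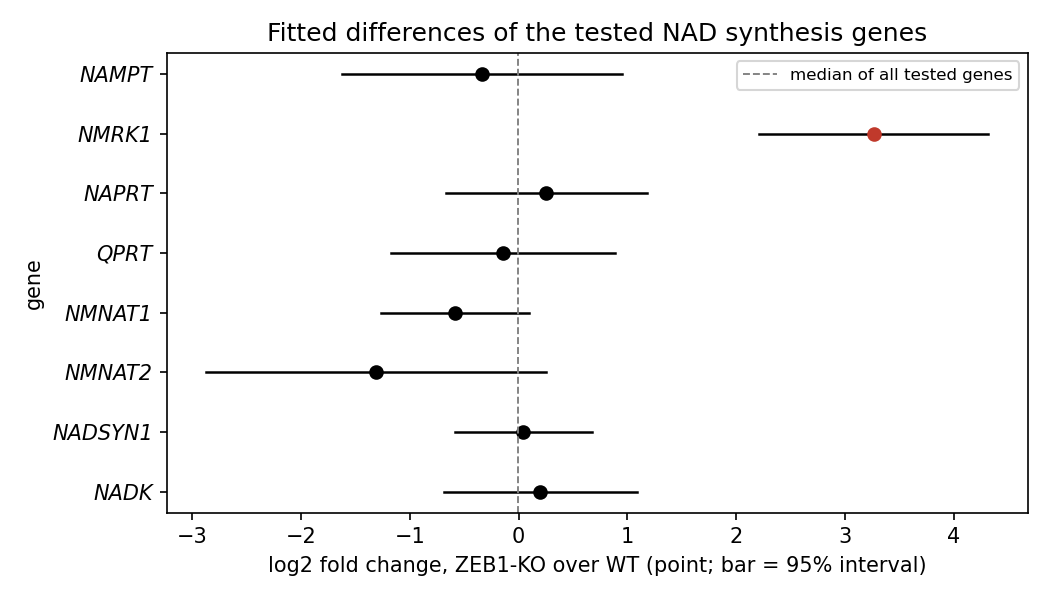
Log2 fold change of ZEB1-KO over WT clones for the 8 tested members (points) with 95% intervals (bars) and the median of all tested genes (dashed line). NMRK1 lies at 3.27 with an interval of 2.21 to 4.32, and the intervals of the other 7 members cross 0.

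A wider list of 79 other genes of NAD supply and use was examined, of which 63 were tested: the tryptophan route, precursor handling and uptake, NAD and NADP carriers and turnover, sirtuins, ADP-ribosyltransferases and NAD hydrolases, and the methyl donor cycle that NNMT draws on. In edgeR's quasi-likelihood test 0 of the 63 passed an adjusted p of 0.05 in either direction, and 15 (23.8%) had an unadjusted p below 0.05, next to the 17.7% of all genes. Every ZEB1-KO clone lay above every WT clone for 17.5% of the 63 and below for 7.94%, against the 11.9% and 11.7% given above. DESeq2 called 2 of 62 of these genes higher, SLC29A1 and PARP9, and 1 lower, NT5E, against 4.34% and 2.78% of all genes. The authors' deposited table, which lists 56 of them, called the same 3 in the same directions, against 2.82% and 1.92%. The median log2 fold change was 0.13 and the range -2.24 to 1.91. The median was between -0.05 and 0.28 in each of the 6 lists. Above 0 were 3 of 7 tested genes of the tryptophan route, 8 of 13 of precursor handling, 4 of 10 of carriers and turnover, 4 of 7 sirtuins, 13 of 19 ADP-ribosyltransferases and hydrolases and 2 of 7 of the methyl donor cycle, against 49.4% of all tested genes.

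The highest and the lowest log2 fold change of the 63 belonged to SLC29A1 and NT5E, and neither passed the test. In edgeR's quasi-likelihood test, 6 of 13 precursor handling genes (46.2%) had an unadjusted p below 0.05, against 17.7% of all genes. This was the highest share of any list, the others having 10.5% to 28.6%. The genes behind it went both ways, NT5E and SLC36A4 being lower in ZEB1-KO and the rest higher. Whether this share exceeds that of all genes was not tested. The purine nucleoside phosphorylase PNP at -0.055 and the transporter SLC29A4 at 0.28 both had overlapping groups. SLC29A1, the equilibrative nucleoside transporter ENT1, had 131.8, 175.6 and 78.4 CPM in ZEB1-KO replicates 1, 2 and 3, against 36.2, 29.9 and 36.3 CPM in WT replicates 1, 2 and 3. All 3 ZEB1-KO clones lay above all WT clones, most in replicate 2, and the fitted difference was 3.77-fold (log2 fold change 1.91, SE 0.31, adjusted p = 0.0621, edgeR's quasi-likelihood test). The adjusted p was 0.0359 without ZEB1-KO replicate 3 and ranged from 2.17e-06 to 0.229 over the alternatives. NT5E, the ectonucleotidase CD73, which can release nicotinamide riboside from the mononucleotide, had 56.03, 32.95 and 43.9 CPM in ZEB1-KO replicates 1, 2 and 3, against 62.4, 188.1 and 375.8 CPM in WT replicates 1, 2 and 3. Each ZEB1-KO clone lay below each WT clone, but WT replicate 1 stood close to the ZEB1-KO clones, and the log2 fold change of -2.24 (SE 0.57) had an adjusted p of 0.115, with a range of 0.000963 to 0.307 over the alternatives. Without WT replicate 3, its highest clone, the log2 fold change of NT5E was -1.50.

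The remaining named genes of the list did not pass the test either. SLC29A3, a nucleoside transporter of intracellular membranes, had a log2 fold change of 1.32 (SE 0.57), and of 2.01 without WT replicate 1, and its groups overlapped. SLC7A5, which imports tryptophan, had one of 1.09 (SE 0.43), with ZEB1-KO replicate 2 at 54.7 CPM and the other ZEB1-KO clones at 31.2 and 16.7 CPM, against 10.9 to 19.2 CPM in WT clones. SLC36A4, another tryptophan carrier, had 18.0 CPM ± 1.84 in ZEB1-KO and 34.5 CPM ± 11.2 in WT clones (SD, n = 3 each), and the fitted log2 difference was -0.93 (SE 0.29) without overlap. PARP9, a macrodomain protein of the ADP-ribosyltransferase family, had 18.6 CPM ± 1.86 in ZEB1-KO and 7.55 CPM ± 1.11 in WT clones (SD, n = 3 each), and the quasi-likelihood adjusted p was 0.0885, with a range of 0.000263 to 0.270 over the alternatives. SIRT2, the cytosolic NAD-dependent deacetylase, had a log2 fold change of 1.06 (SE 0.38) without overlap, and NNT, the mitochondrial transhydrogenase, one of 1.21 (SE 0.69) with overlap. Without ZEB1-KO replicate 1, its highest clone, NNT was at 0.29. NMRK2, the second riboside kinase, had 0 counts in all libraries, and the NAD hydrolase gene CD38 had 1 count in ZEB1-KO replicate 3 and 0 elsewhere.

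**Figure D4:**
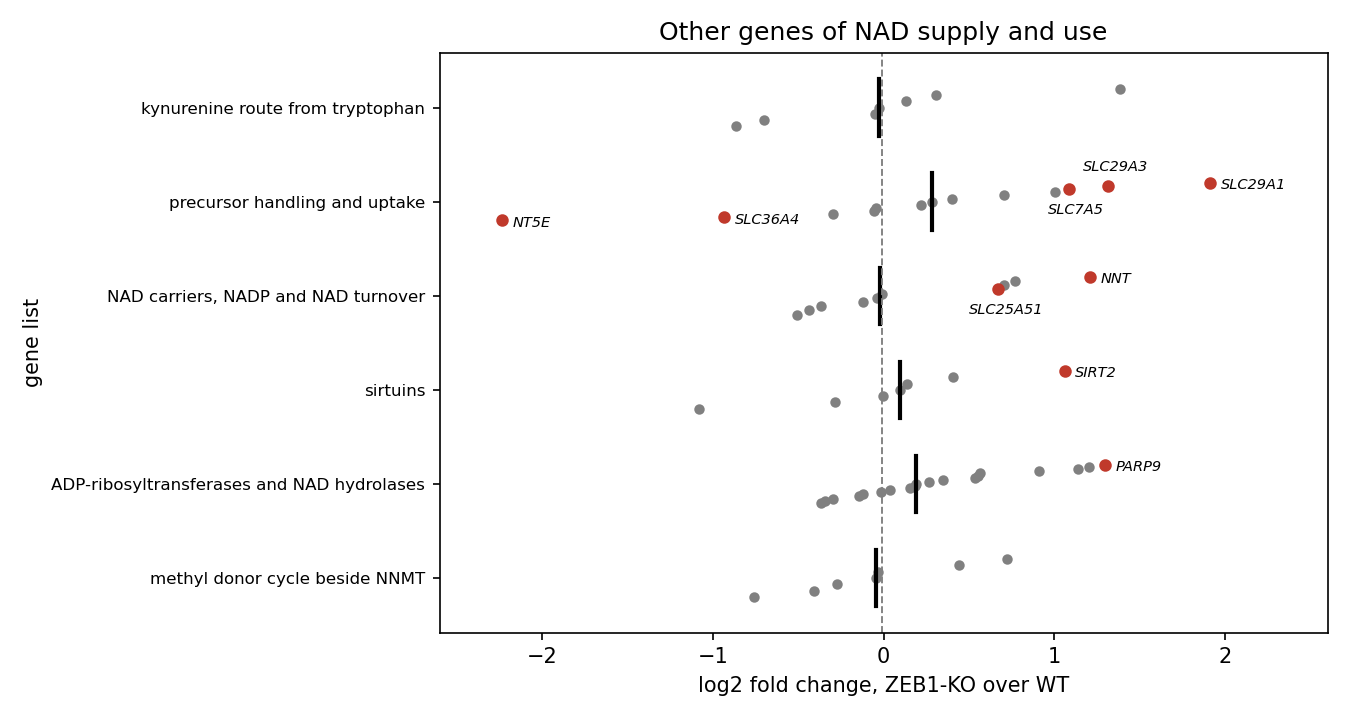
Log2 fold change of ZEB1-KO over WT clones for the 63 tested genes of the wider list, by gene list; grey and red points are genes (red, named in the text), black bars the median of each list, and the dashed line the median of all tested genes. SLC29A1 at 1.91 and NT5E at -2.24, both of precursor handling and uptake, are the extremes.

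The genes whose level followed NMRK1 most closely were found by Pearson's correlation of log2 CPM over the 6 libraries, among 9039 genes whose higher group mean reached 5 CPM. They were CDS1, TNS4, SHQ1, SLC25A51 and ALAS1, with r between 0.991 and 0.996. Since NMRK1 separates the groups, such values are shared by genes that do the same, and the 6 points are a description without a test. SLC25A51, which carries NAD into mitochondria and was also on the wider list, had 12.4, 10.4 and 11.5 CPM in ZEB1-KO replicates 1, 2 and 3, against 7.17, 7.90 and 6.44 CPM in WT replicates 1, 2 and 3. The order of the clones inside each group was that of NMRK1, as it also was for TNS4 and SHQ1. These genes were picked by likeness to NMRK1 in the same libraries, so a shared order is no separate result. The log2 fold change of SLC25A51 was smaller than that of NMRK1, at 0.67 (SE 0.24, adjusted p = 0.207, edgeR's quasi-likelihood test). TNS4, a focal adhesion protein of the tensin family, had 18.1, 6.37 and 15.4 CPM in ZEB1-KO replicates 1, 2 and 3, against 0.344, 0.956 and 0.284 CPM in WT replicates 1, 2 and 3. CDS1, which makes CDP-diacylglycerol, had 188, 191 and 248 counts in ZEB1-KO and 0, 8 and 0 counts in WT replicates 1, 2 and 3. ALAS1, the first enzyme of heme synthesis, had 50.7 CPM ± 3.21 in ZEB1-KO and 31.2 CPM ± 2.57 in WT clones, and SHQ1, an assembly factor of H/ACA ribonucleoproteins, had 49.9 CPM ± 3.13 in ZEB1-KO and 30.01 CPM ± 4.17 in WT clones (SD, n = 3 each).

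NMRK1 lies on chromosome 9, on the minus strand in GENCODE v29. The next tested gene in RefSeq order, OSTF1, runs on the plus strand away from it. This neighbourhood was examined after the OSTF1 counts had been seen. OSTF1, an SH3-domain adaptor, had 37.3, 31.9 and 33.8 CPM in ZEB1-KO replicates 1, 2 and 3, against 8.11, 19.5 and 10.5 CPM in WT replicates 1, 2 and 3. Its groups did not overlap, and its highest WT clone, replicate 2, was also the highest WT clone for NMRK1. The log2 fold change of OSTF1 was 1.44 (SE 0.34, adjusted p = 0.110, edgeR's quasi-likelihood test). C9orf41, the tested gene on the other side, and RFK, the riboflavin kinase gene beyond OSTF1, had log2 fold changes of 0.88 (SE 0.30) and 0.71 (SE 0.20), again without overlap and without passing the test. TRPM6, at 0.22 (SE 0.34), also had every ZEB1-KO clone above every WT clone. Over all tested genes, 11.9% had every ZEB1-KO clone above every WT clone and 11.7% had every ZEB1-KO clone below. Over the 10 nearest tested genes, 5 on each side, the median was 0.28 with 7 above 0 and 0 called, while ANXA1 and VPS13A had -1.37 and -0.61, with every ZEB1-KO clone below every WT clone. The 526 tested genes of chromosome 9 had a median of -0.007, with 260 above 0. What these neighbours share with NMRK1 beyond position was not tested.

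**Figure D5:**
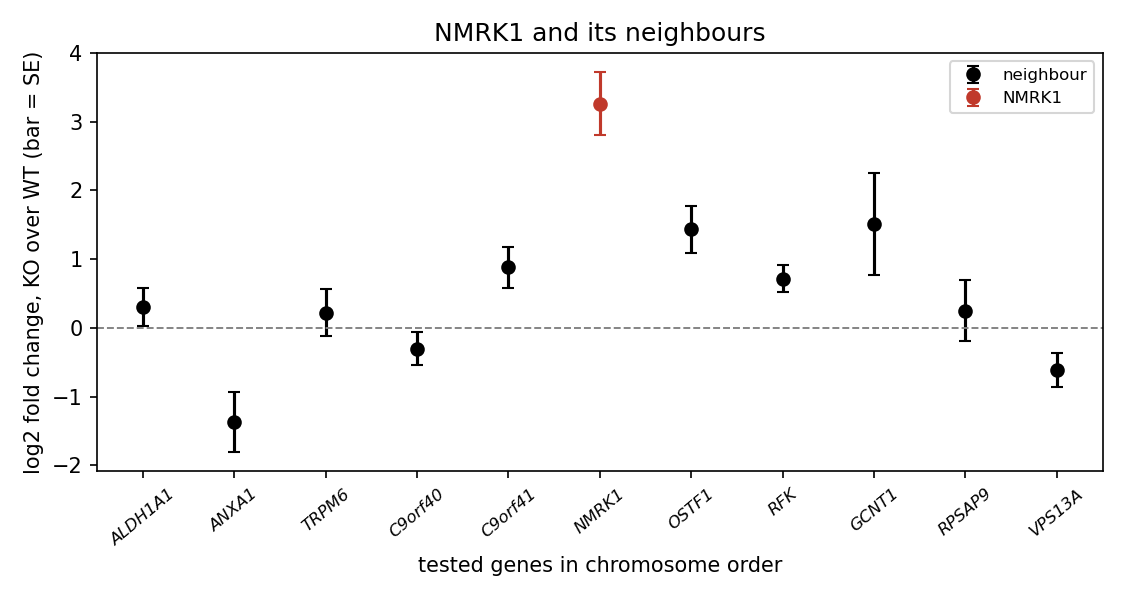
Log2 fold change of ZEB1-KO over WT clones (points; bars, SE) for NMRK1 (red) and the 5 nearest tested genes on each side (black) in chromosome order, spaced evenly, with the median of all tested genes dashed. NMRK1 at 3.27 stands above GCNT1 at 1.51, a gene of under 4 CPM whose groups overlap, OSTF1 at 1.44, C9orf41 at 0.88 and RFK at 0.71.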

How the data were processed

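Gene expression was measured in 6 SMART-Seq2 libraries, grouped by their titles as 3 ZEB1-KO and 3 WT clones. The authors deposited unnormalized counts for each symbol, TPM values for 11013 of these genes, and their own edgeR comparison. Its columns are, per the file headers, the log2 fold change (ZEB1-KO over WT), the average log2 CPM, the score of a likelihood ratio test, and the p-value with its adjusted form. The tools were TopHat2 2.1.0 and HTSeq 0.6.1, then edgeR 3.2.2, on hg19 (GRCh37), per the submitters' processing notes. The sources used here give neither counting settings nor gene lengths.

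For the present comparison the deposited counts went into edgeR 4.0.16 (R 4.3.3). Low genes were removed by filterByExpr (minimum count 10, total 15). The remaining 13659 were scaled with TMM factors, fitted with the group alone (glmQLFit) and tested two-sided (glmQLFTest), with Benjamini-Hochberg adjustment over all tested genes and a threshold of 0.05. The SE was derived from the F statistic and intervals are at 95%. CPM use the TMM-scaled library sizes, and correlations used log2 CPM with a prior count of 2. The code was tested on simulated data. Floors of 3 counts cover counting error only, as amplified reads are not independent molecules. Counts of any pair of libraries differed far beyond sampling noise (the lowest chi-square per gene was 117), and none was a copy.

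The members and gene lists were chosen with earlier results of these data known. Named were all members, ZEB1, any called gene of the wider list and the 8 largest differences in it at 5 CPM or more, and the 5 genes most like NMRK1. Genes of the neighbourhood, markers, PNP, SLC29A4, NMRK2 and CD38 were named after their values were seen. Alternatives were RLE, upper quartile or no scaling factors, no filter or 1 CPM in 3 libraries, DESeq2 1.42.0, the likelihood ratio test, limma-voom, limma 3.58.1 on log2 of TPM plus 1 or 0.1 (with a mean of 1 TPM required, or unfiltered), the replicate number as a block, and each library left out. NAMPT and NMNAT1 have 3 and 5 named pseudogenes in GENCODE v29, none among the deposited symbols, so reads shared with them are uncertain. NAMPT, NAPRT, NMNAT1, NMNAT2, NMNAT3, NADSYN1 and NNMT overlap genes of the opposite strand there, and unstranded reads cannot tell the partners apart. Culture days and batches are not given, and p-values measure only the spread between these clones.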

Additional observations from a re-analysis of the deposited data

How the results depend on the processing

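The NMRK1 log2 fold change kept its sign in all 18 alternatives. It was 2.57 in both fits on log2(TPM + 1), where the added 1 compresses low values, and lay between 3.00 and 3.79 without single libraries. The count of members called higher was 0 whichever single library was left out, against 1 with all 6. Over all genes, 16 were called higher and 8 lower, against 570 and 365 by DESeq2, 376 and 241 by the likelihood ratio test, 87 and 47 with no filter, 63 to 82 and 17 to 19 on log2 TPM, and 3 to 16 and 2 to 10 without single libraries. The deviations of same-numbered clones correlated with r of 0.022, 0.007 and 0.224, the last being the highest of any pair across the groups. ZEB1-KO replicates 1 and 2 correlated best with WT replicates 2 and 1 (r of 0.083 and 0.104). With 3 clones a group, these values cannot decide whether same-numbered clones shared a culture or batch. With the replicate block 0 members were called higher. Of the wider list, 2 genes were called higher by DESeq2, by the likelihood ratio test and on log2(TPM + 1) with or without a filter, and 1 on log2(TPM + 0.1) and with no filter; 1 was called lower by DESeq2 and by the likelihood ratio test. Without single libraries that count of higher genes was 0 to 1, the 1 being SLC29A1 without ZEB1-KO replicate 3. The cause of these moves was not tested.

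For the other 7 tested members, 111 of 120 alternative values kept both direction and call, and 9 changed sign, none of them past the threshold. NAMPT was 0.077 on log2(TPM + 1), 0.077 without a filter and 0.079 on log2(TPM + 0.1), where the median of all genes was 0.23, 0.20 and 0.27, so that NAMPT stayed below that median. Library size alone moved the median to 0.14. Without single libraries NAMPT ranged from -0.78 to 0.027, NAPRT from -0.14 to 0.47, QPRT from -0.36 to 0.16, NADSYN1 from -0.16 to 0.18 and NADK from -0.29 to 0.47. Depth limits NAPRT, QPRT, NMNAT2, NMNAT3 and NNMT, which had at most 122 counts in any library. It also limits NMRK1 in WT clones, at 31, 45 and 12 counts in replicates 1, 2 and 3.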
